A study of Homo sapiens with 8 samples.

Results

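hsa-miR-1246 and hsa-miR-1290 are 2 of the 2549 human miRNAs with probes on the arrays, and both names have been linked to fragments of the U2 small nuclear RNA. They were chosen by their measured values in these samples, since both were higher after UNC1999, together with that link. The differences between the treatments and the correlation of the pair are therefore given as descriptions with no test. Mature miRNAs of INA-6 cells, an established human multiple myeloma (MM) line that grows with interleukin-6, were measured on 8 single-colour arrays that lay on 1 slide. The DMSO group held 4 arrays of cells given the solvent alone, and the UNC1999 group held 4 arrays of cells given 1 μM of UNC1999, a small-molecule inhibitor of the histone methyltransferase EZH2, both for 120 h. The titles name DMSO as the control, whereas the treatment protocol in the labels names the inactive compound UNC2400, and the samples were taken as DMSO controls. All of them come from 1 cell line and are labelled as biological replicates.

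U2 is a small nuclear RNA of the spliceosome, where it pairs with the branch point of the intron. Mature miRNAs are short RNAs that are usually cut from a hairpin by Drosha and Dicer and that pair with target mRNAs mainly through the seed near the 5′ end. Some entries of the miRNA catalogue have sequences that also occur in other small RNAs, such as fragments of tRNA, snoRNA, rRNA or snRNA, and an array probe reads such fragments and a processed miRNA alike. A level on these arrays is therefore the signal of a probe, and the source of the RNA was not tested.

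The mature sequences are shown because the pair are compared by what they share. They were taken from RefSeq (GRCh38.p14), in which both were found, and the capitals mark the seed, bases 2 to 8 from the 5′ end.
hsa-miR-1246: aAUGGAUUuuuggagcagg
hsa-miR-1290: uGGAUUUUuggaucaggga
Both are 19 bases long with 42.1% of G and C. hsa-miR-1246 lies at chr2:176601024-176601042 on the minus strand, in the gene MIR1246, which overlaps no other gene of the RefSeq annotation. hsa-miR-1290 lies at chr1:18897078-18897096 on the minus strand, in the gene MIR1290, which lies within the span of the protein-coding gene ALDH4A1.

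The seeds differ, but both RNAs hold a longer run that takes in the whole seed of hsa-miR-1290 and all but the first base of the seed of hsa-miR-1246. That run of 12 bases takes bases 3 to 14 of hsa-miR-1246 and bases 1 to 12 of hsa-miR-1290, and is in capitals here.
hsa-miR-1246: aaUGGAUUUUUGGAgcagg
hsa-miR-1290: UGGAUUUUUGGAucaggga
With the run aligned and no gap, 16 of 17 paired bases were equal, and the difference was G15U, counted from the 5′ end of hsa-miR-1246 with its base first. The last 10 bases of the mature RNAs, set against each other from the 3′ end, differed at 9 positions because of the offset of 2 bases. Of the 2549 human miRNAs, 2248 had a mature sequence in the table. Apart from the pair, 0 of these shared bases 2 to 8 with either of them, and 0 shared a run of 10 or more bases. In 7 of them the last 10 bases differed from those of hsa-miR-1246 or hsa-miR-1290 at no more than 2 positions, and 2 of the 7 were detected on all 8 arrays. Their longest shared run is in capitals.
hsa-miR-4669: uguguccgggaagUGGAGgagg
hsa-miR-6891-5p: uaaggAGGGggaugagggg
hsa-miR-4669 shared 5 bases with hsa-miR-1246 and hsa-miR-6891-5p shared 4 bases with hsa-miR-1290, and both are taken up again with the tested miRNAs.

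The hairpin of MIR1246 is shown to place the mature RNA in its precursor, with the mature bases in capitals.
MIR1246: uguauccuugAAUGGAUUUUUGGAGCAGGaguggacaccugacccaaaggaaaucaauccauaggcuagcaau
The hairpin has 73 bases, and the mature RNA takes bases 11 to 29, on its 5′ arm.

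The arrays differed in ways that the treatment does not name. The scanner software marked 482, 369, 370 and 484 human miRNAs as detected on DMSO replicates 1 to 4, and 500, 498, 491 and 474 on UNC1999 replicates 1 to 4, so DMSO replicates 2 and 3 had the fewest. The 75th percentile of intensity over the 346 miRNAs detected on all arrays was 474, 349, 296 and 559 on the DMSO arrays and 686, 708, 729 and 534 on the UNC1999 arrays. Each array was divided by that percentile, so that a level is relative to the brighter miRNAs of the same array. Within each group the arrays were alike in pairs. The SD over these 346 miRNAs of the log2 difference was 0.12 between DMSO replicates 1 and 4 and 0.18 between DMSO replicates 2 and 3, against 0.32 to 0.36 for the other DMSO pairs. It was 0.14 between UNC1999 replicates 1 and 3 and 0.17 between UNC1999 replicates 2 and 4, against 0.30 to 0.32 for the other UNC1999 pairs. The first principal component of the 344 miRNAs other than hsa-miR-1246 and hsa-miR-1290 held 75.7% of the variance and separated the treatments, and the second held 14.7% and set DMSO replicates 1 and 4 and UNC1999 replicates 1 and 3 on one side and the remaining arrays on the other. DMSO replicates 1, 2 and 4 and UNC1999 replicate 4 lay in row 1 of the slide and the other arrays in row 2, so that treatment and row were not balanced. The sides did not follow the row, and it was not tested whether 2 alike arrays came from separate cultures. Each array was counted as a separate sample, and every n = 4, SE and adjusted p given here rests on that.

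hsa-miR-1246 was higher on every UNC1999 array than on any DMSO array. Its log2 scaled intensity was 11.55, 11.82, 11.96 and 11.71 on DMSO replicates 1 to 4, and 12.30, 13.46, 12.05 and 13.28 on UNC1999 replicates 1 to 4. UNC1999 replicates 2 and 4 stood well above UNC1999 replicates 1 and 3, and UNC1999 replicate 3 lay only just above the highest DMSO array. The group means were 11.76 ± 0.17 (SD, n = 4) and 12.77 ± 0.70 (SD, n = 4), a log2 difference of 1.01 or 2.02-fold. Before scaling, the intensity was between 2274 and 3625 on the DMSO arrays and between 5982 and 15429 on the UNC1999 arrays.

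hsa-miR-1290 was also higher on every UNC1999 array than on any DMSO array. Its log2 scaled intensity was 9.05, 8.29, 8.61 and 9.01 on DMSO replicates 1 to 4, and 9.54, 9.47, 9.43 and 9.52 on UNC1999 replicates 1 to 4. DMSO replicates 2 and 3 were the low arrays here, and the UNC1999 arrays lay close together. The group means were 8.74 ± 0.36 (SD, n = 4) and 9.49 ± 0.05 (SD, n = 4), a log2 difference of 0.75 or 1.69-fold. Groups that do not overlap were common on these arrays, as they were found for 65.4% of the 456 miRNAs tested, those detected on every array of one group or both, and the choice of the pair used the same contrast.

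**Figure D1:**
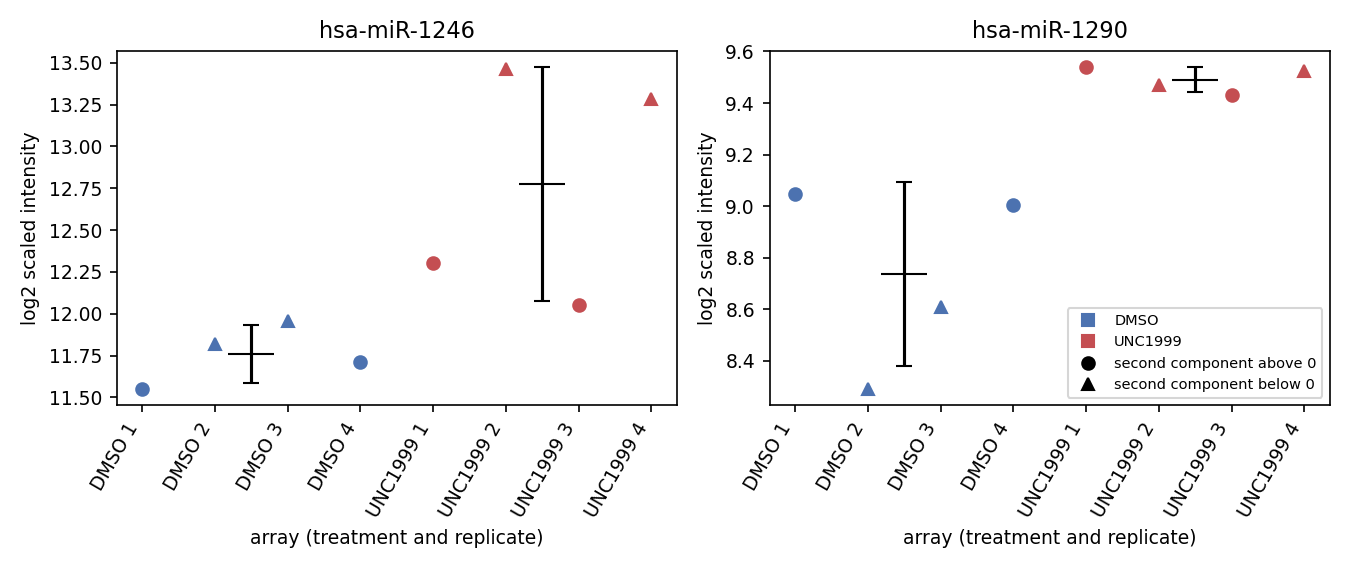
Log2 scaled intensity of hsa-miR-1246 (left) and hsa-miR-1290 (right) on each array, with DMSO in blue and UNC1999 in red. Circles and triangles mark the sides of the second principal component of the other miRNAs, and black bars give the group mean ± SD (n = 4). The UNC1999 arrays of hsa-miR-1246 run from 12.05 to 13.46, and those of hsa-miR-1290 from 9.43 to 9.54.

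The spread of the pair between arrays ran in opposite ways in the 2 groups. In the UNC1999 group the SD of hsa-miR-1246 was the highest of the 456 tested miRNAs, 0.70 against a median of 0.14, while 431 of the 456 had a larger SD than hsa-miR-1290. In the DMSO group hsa-miR-1290 was the more variable, with 62 of 456 miRNAs above its SD of 0.36, and 249 of 456 lay above the SD of 0.17 of hsa-miR-1246, where the median was 0.19. Within the UNC1999 group the range of hsa-miR-1246 was 2.66-fold and that of hsa-miR-1290 was 1.08-fold. These places and ranges hold for the main scaling only. Before scaling, hsa-miR-1290 was between 759 and 985 on the UNC1999 arrays. Relative to RNAs added before labelling, the labelling spike-ins, the UNC1999 SD was 0.62 for hsa-miR-1246 and 0.098 for hsa-miR-1290. In the DMSO group it was 0.24 and 0.62. The scanner software's own error of the summed signal was between 9.36% and 9.49% for hsa-miR-1246 on the 8 arrays, and between 9.46% and 10.2% for hsa-miR-1290.

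Each of the pair was read by a brighter and a dimmer probe with 10 spots each on every array, and none of these spots was saturated. The brighter probe of hsa-miR-1246 gave between 93.2% and 94.5% of its summed signal. Its log2 scaled intensity was 11.47, 11.73, 11.87 and 11.63 on DMSO replicates 1 to 4 and 12.22, 13.36, 11.97 and 13.19 on UNC1999 replicates 1 to 4, a difference of 1.01. The dimmer probe differed by 1.03 and placed the 8 arrays around their group means in the same order (Spearman's rho = 1, Pearson's r = 0.998 over 8 arrays), although its groups overlapped, as UNC1999 replicate 3 at 7.86 lay below DMSO replicate 3 at 7.94. The coefficient of variation over the spots of the brighter probe was between 1.06% and 6.13%, which covers the error within a hybridization only.

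The brighter probe of hsa-miR-1290 gave between 93.8% and 96.3% of its summed signal and differed by 0.77 on the log2 scale, with groups that did not overlap. Its dimmer probe differed by 0.37, with values of 5.03, 4.11, 3.90 and 4.99 on DMSO replicates 1 to 4 and between 4.72 and 5.01 on the UNC1999 arrays, so that DMSO replicates 1 and 4 lay within or above the UNC1999 range. On DMSO replicates 2 and 3, 0 of its 10 spots were well above background, and on the other 6 arrays all 10 were, so the 0.37 rests on the 2 arrays where this probe was not well above background and gives no direction of its own. The 2 probes of hsa-miR-1290 deviated from the group means with r = 0.826 and rho = 0.905 over 8 arrays. Both values describe probes of the same hybridization. They include DMSO replicates 2 and 3, where the dimmer probe was not well above background, so no agreement is read from them.

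**Figure D2:**
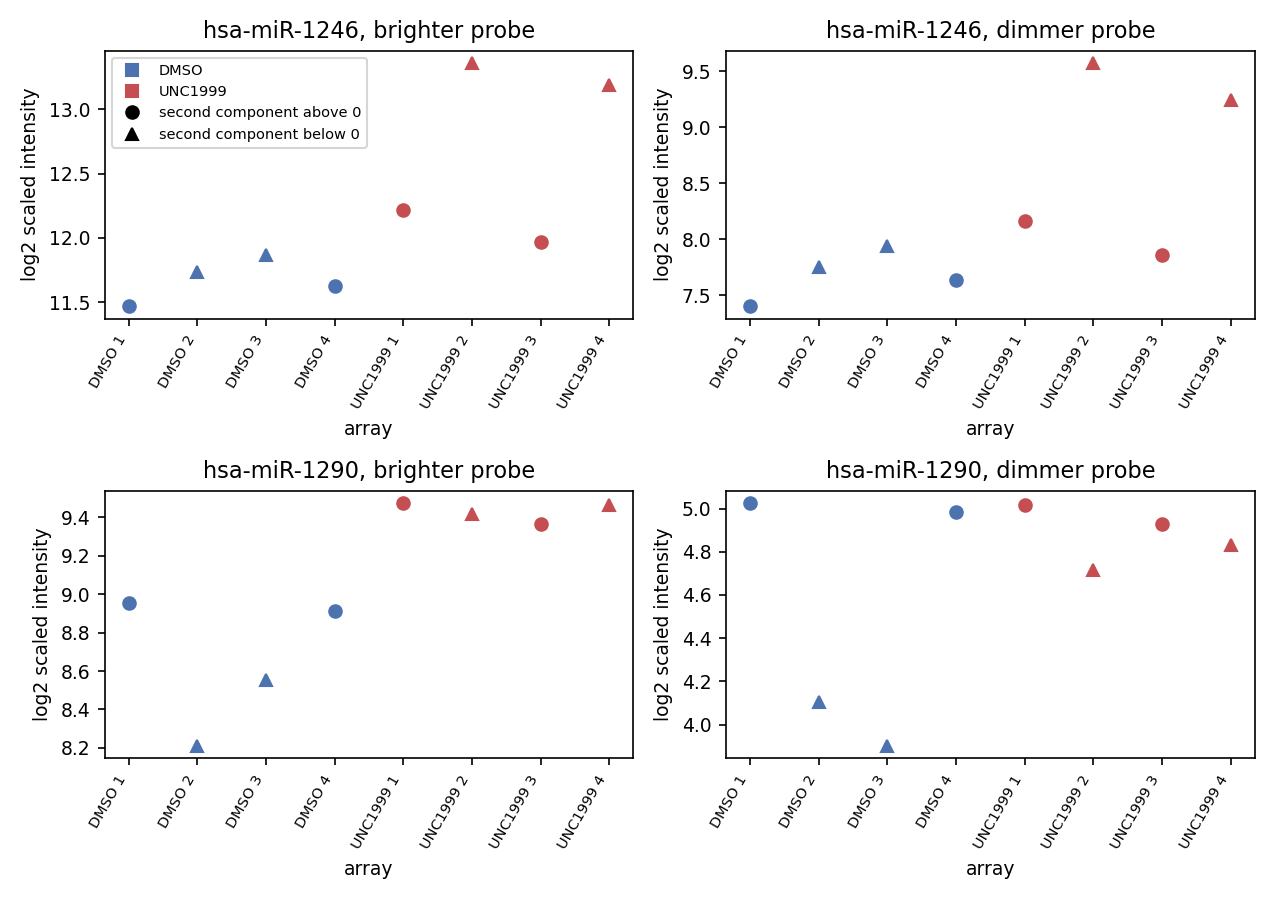
Log2 scaled intensity of each probe of hsa-miR-1246 (top) and hsa-miR-1290 (bottom) on each array, with DMSO in blue and UNC1999 in red and with circles and triangles for the sides of the second principal component. UNC1999 replicates 2 and 4 are the high arrays for both probes of hsa-miR-1246, and DMSO replicates 2 and 3 are the low arrays for both probes of hsa-miR-1290. The dimmer probe of hsa-miR-1290 was not well above background on those 2 DMSO arrays.

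The ratio of hsa-miR-1246 to hsa-miR-1290 within an array is not changed where each array is scaled by a single factor. On the log2 scale it was 2.51, 3.53, 3.35 and 2.71 on DMSO replicates 1 to 4, and 2.76, 3.99, 2.62 and 3.76 on UNC1999 replicates 1 to 4. DMSO replicates 2 and 3 and UNC1999 replicates 2 and 4 were the 4 high arrays, and they are the arrays on one side of the second principal component, which was computed without the pair. The group means were 3.02 ± 0.49 (SD, n = 4) and 3.28 ± 0.69 (SD, n = 4), a difference of 0.26 that was smaller than the SD of either group. With an array left out it was between 0.024, without UNC1999 replicate 2, and 0.48, without UNC1999 replicate 3. It was 0.45 with the mean of log2 probe values, 0.54 in the authors' processed values and 0.56 with normexp, and in the authors' values it was larger than the DMSO SD of 0.47. Probes differ in how brightly they bind, so the size of the ratio is no ratio of molecules, and what its differences between arrays rest on was not tested.

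**Figure D3:**
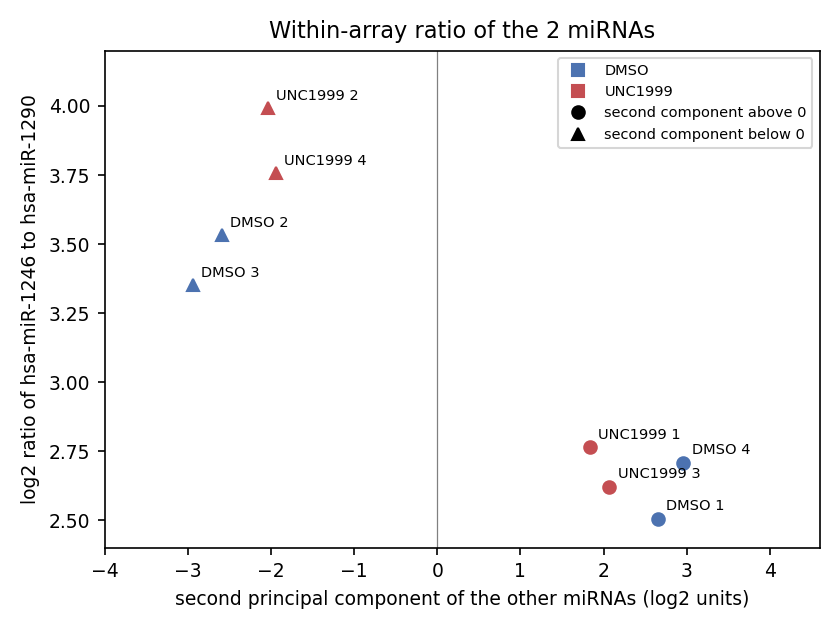
Log2 ratio of hsa-miR-1246 to hsa-miR-1290 on each array against the second principal component of 344 other miRNAs, with DMSO in blue and UNC1999 in red. The arrays above 0 have ratios between 2.51 and 2.76, and those below 0 have ratios between 3.35 and 3.99, with both treatments on each side.

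Over the 8 arrays the log2 values of the pair had r = 0.604 and rho = 0.690. These values hold the difference between the treatments, by which the pair was chosen. As deviations from the group means they had r = -0.139 and rho = -0.262 over the 8 arrays, which fall into alike pairs. hsa-miR-1246 deviated most on the UNC1999 arrays, between -0.72 and 0.69, and hsa-miR-1290 on the DMSO arrays, between -0.45 and 0.31. With the sides of the second principal component as a block as well, r was 0.881, and with the labelling spike-ins as the scale and no block it was 0.141, so that the sign of this value depended on these choices.

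**Figure D4:**
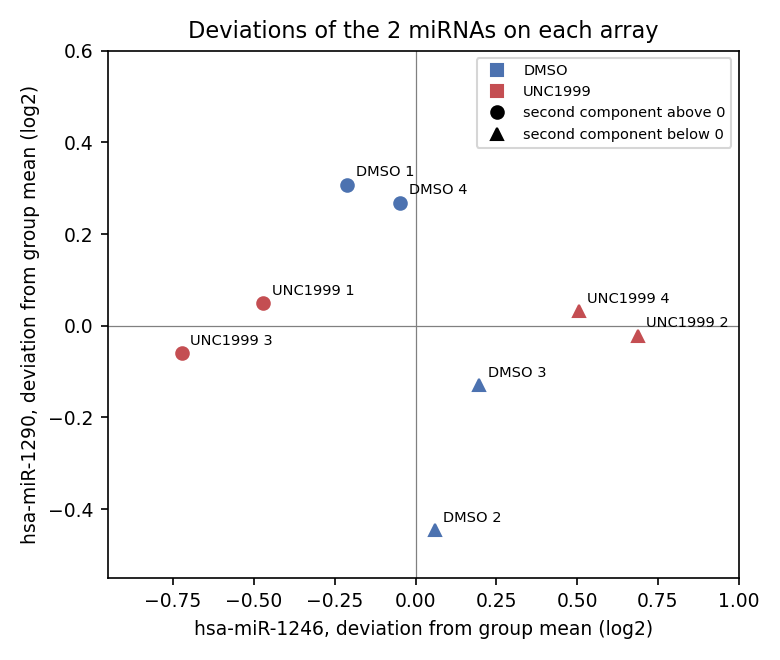
Deviation of hsa-miR-1290 from its group mean against that of hsa-miR-1246, both on the log2 scale, for each array, with DMSO in blue and UNC1999 in red and with circles and triangles for the sides of the second principal component. The UNC1999 arrays are spread along the horizontal axis from -0.72 to 0.69, and the DMSO arrays along the vertical axis from -0.45 to 0.31.

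The miRNAs whose deviations from the group means were most like those of hsa-miR-1246 over the 8 arrays were, among the 345 others detected on all arrays, hsa-miR-4485-3p (r = 0.993), hsa-miR-181b-5p (0.976), hsa-miR-4465 (0.975), hsa-miR-4497 (0.965) and hsa-miR-1973 (0.950). With the percentile over all human miRNAs r was 0.401 for hsa-miR-4465 and 0.673 for hsa-miR-4497. hsa-miR-4485-3p, at 9.65 and 9.61 on UNC1999 replicates 2 and 4 and 8.86 and 8.76 on UNC1999 replicates 1 and 3, had the same high arrays as hsa-miR-1246. The least alike were hsa-miR-6165 (r = -0.981), hsa-miR-4442 (-0.909) and hsa-miR-8069 (-0.887), but these r were -0.123, 0.00444 and -0.0619 without scaling and -0.406, -0.263 and -0.335 with the labelling spike-ins. In all, 39 of the 345 had r of at least 0.8 with hsa-miR-1246, and hsa-miR-1290 was at place 201.

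For hsa-miR-1290 the most alike were hsa-miR-4763-3p (r = 0.977), hsa-miR-4689 (0.969), hsa-miR-1181 (0.968), hsa-miR-7108-5p (0.967) and hsa-miR-718 (0.966), of which none was among those most like hsa-miR-1246. hsa-miR-4763-3p was at 8.20 and 8.41 on DMSO replicates 2 and 3, its lowest arrays, and between 8.76 and 9.11 on the other arrays. The least alike were hsa-miR-210-3p (r = -0.911), hsa-miR-5739 (-0.902) and hsa-miR-138-5p (-0.834). The median r with the 345 others was 0.416 for hsa-miR-1290 and 0.0341 for hsa-miR-1246, and 68 had r of at least 0.8 with hsa-miR-1290. These values come from the same 8 arrays and carry the alike pairs. With normexp background correction 4 of the 5 most like hsa-miR-1290 had r below 0. Without scaling the 3 least alike had r above 0, and so had hsa-miR-5739 and hsa-miR-138-5p with the labelling spike-ins and with the percentile over all human miRNAs.

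The pair stood high among the 456 tested miRNAs. hsa-miR-1246 had the 7th largest log2 difference and hsa-miR-1290 the 45th, which is a description only, as this contrast chose them. Of the 456, 322 (70.6%) were called, that is, had a p of limma's moderated test that was 0.05 or lower after Benjamini-Hochberg adjustment and differed 1.2-fold or more, of which 164 (36% of those tested) were higher and 158 (34.6%) lower after UNC1999. The split depended on the scale, with 234 higher and 4 lower without scaling, 295 and 7 with the labelling spike-ins, 192 and 88 with the percentile over all human miRNAs, and 171 and 134 with quantile normalization. With normexp, a background correction that was run on the median signal with an offset, it was 54 and 230. The split also depended on the filter. Among the 346 miRNAs detected on all 8 arrays, 109 were higher and 139 lower, with a median log2 difference of -0.14. With no filter on detection, 71 were higher and 124 lower. The median log2 difference of the tested miRNAs was 0.011, and it was 0.67 without scaling, 0.78 with the labelling spike-ins, 0.23 with the percentile over all human miRNAs, 0.11 with quantile normalization, 0.18 in the authors' processed values and -0.29 with normexp. Relative to the median of each setting, hsa-miR-1246 lay between 0.89 and 1.49 higher and hsa-miR-1290 between 0.55 and 0.92 higher over the signal, background, probe and scaling settings.

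The 2 tested miRNAs with like last bases were both called, where 70.6% of all tested miRNAs were. hsa-miR-6891-5p was higher by 0.70 ± 0.10 (SE) on the log2 scale (adjusted p = 0.000414), also under all the scalings. hsa-miR-4669 was higher by 0.33 ± 0.10 (SE, adjusted p = 0.0122), but was at -0.11 with normexp and its call was lost in a fit blocked by slide row (adjusted p = 0.0563) and with the scanner software's sum (adjusted p = 0.0741).

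Other catalogue entries that have been linked to longer structured RNAs lay on both sides of 0. Of the 6 entries linked to tRNA, 5 were on the array, all 5 were detected on all 8 arrays, and all 5 were called lower after UNC1999, where 34.6% of all tested miRNAs were, with a median log2 difference of -1.33 against 0.011 over all tested miRNAs. Among the 346 miRNAs that were likewise detected on all 8 arrays, 139 were called lower, and the median log2 difference was -0.14. hsa-miR-4286 fell by 1.47 ± 0.21 (SE, adjusted p = 0.000385), and hsa-miR-7977 fell by 1.33 ± 0.14 (SE, adjusted p = 0.000102). hsa-miR-1260a fell by 1.33, hsa-miR-5100 fell by 1.31 and hsa-miR-1260b fell by 1.26, each below every DMSO array on 4 of 4 UNC1999 arrays. The median of these 5 entries was -0.63 without scaling and -0.51 with the labelling spike-ins. All 5 stayed below 0 without scaling, with the labelling spike-ins and with the percentile over all human miRNAs. With the spike-ins all 5 were called lower, where 7 of the 456 were, and with that percentile all 5, where 88 were. Without scaling 2 of the 5 were called lower, where 4 of the 456 were. hsa-miR-7977 was at -0.23 in the authors' processed values and was not called (adjusted p = 0.0823). It was at 0 with quantile normalization, where 4 of the 5 were called lower. That method gives a miRNA of the same rank on every array the same value, so the 0 cannot show a lost difference. The scaling of the authors' values is not given, and they hold 10.8444 for hsa-miR-1246 on both UNC1999 replicate 2 and UNC1999 replicate 4. Whether the same limit bears on the -0.23 was not tested.

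Of the 10 entries linked to snoRNA, 9 were on the array and 3 were tested, and their median log2 difference was -0.63. hsa-miR-3651 fell by 0.84 ± 0.09 (SE, adjusted p = 0.000102), and was not called with the labelling spike-ins, at -0.027, or without scaling, at -0.14. hsa-miR-664b-3p fell by 0.63 ± 0.10 (SE, adjusted p = 0.000529), but was at 0.067 without scaling and 0.18 with the labelling spike-ins. hsa-miR-664b-5p was detected on 2 DMSO and 4 UNC1999 arrays. It entered the test through the UNC1999 group alone, so no conclusion is drawn from its calls. It differed by 0.33 ± 0.20 (SE, adjusted p = 0.159) and was not called. The difference was 0.15 without DMSO replicate 3, 0.20 without DMSO replicate 2 and 2.27 in the authors' processed values, each time not called. It was called higher with alike arrays as a block (adjusted p = 0.0431), with the percentile over all human miRNAs (0.0479), without scaling (0.0107), with the labelling spike-ins (0.00273) and without DMSO replicate 4 (0.0459). With normexp it was called lower, at -0.35 (0.0210). Of the 2 entries linked to the precursor of rRNA, hsa-miR-3648 rose by 0.57 ± 0.11 (SE, adjusted p = 0.00151), although it was not called with normexp at 0.024, and hsa-miR-3687 was detected on 0 arrays. The pair linked to U2 was not tested against them.

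**Figure D5:**
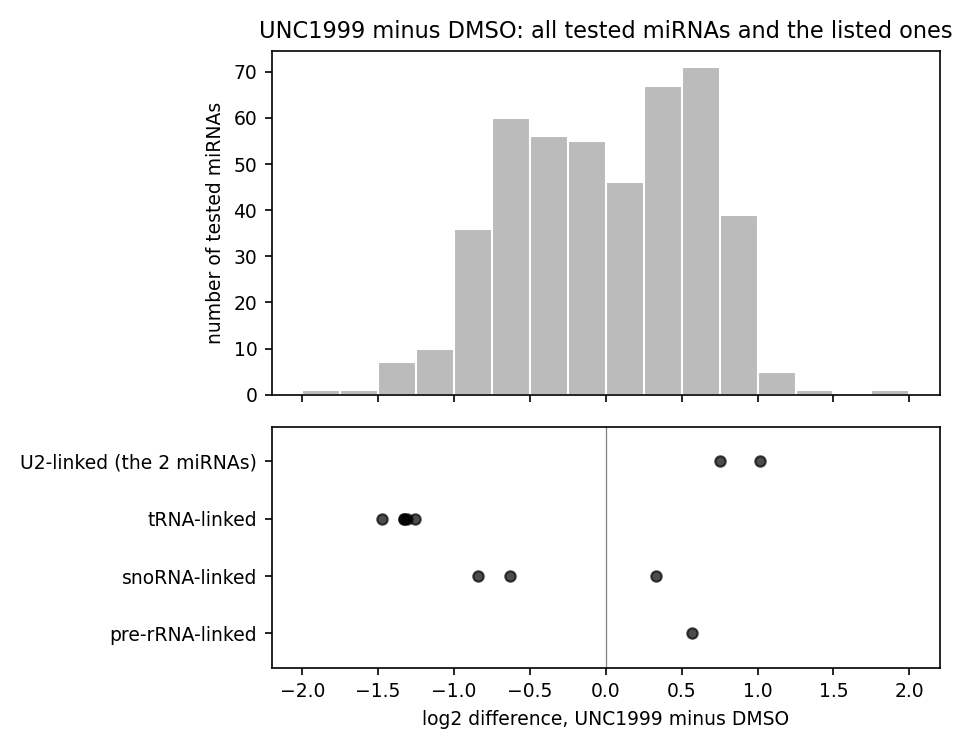
Number of the 456 tested miRNAs by log2 difference, UNC1999 minus DMSO, in bins of 0.25 (top), and the log2 difference of hsa-miR-1246 and hsa-miR-1290 and of each tested entry linked to tRNA, snoRNA or the rRNA precursor (bottom). The 5 entries linked to tRNA lie between -1.47 and -1.26, and the pair linked to U2 at 0.75 and 1.01.

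The miRNAs of the array matched the labelled blood lineage. hsa-miR-142-3p, a miRNA of blood cells, was at 11.77 ± 0.21 (SD, n = 4) on the DMSO arrays, and 4 of 5 blood-lineage miRNAs were detected on all 8 arrays. hsa-miR-155-5p was detected on 0 DMSO and 2 UNC1999 arrays. Of 12 miRNAs of liver, muscle, neural, epithelial and red cells, 11 were detected on 0 arrays, and hsa-miR-9-5p was detected on all. Of the 4 blood-lineage miRNAs tested, 3 were lower after UNC1999 (hsa-miR-142-3p by -0.52, hsa-miR-142-5p by -0.36 and hsa-miR-150-5p by -0.56) and 0 higher, where 34.6% of all tested miRNAs were called lower, but these 3 were above 0 without scaling and with the labelling spike-ins, and 0 of the 4 were called with the percentile over all human miRNAs. hsa-miR-21-5p, not called with the main settings, was called higher with the labelling spike-ins (log2 difference 0.80, adjusted p = 0.00748). hsa-miR-142-3p was also not called with normexp, in the authors' processed values or with no filter on detection, and hsa-miR-142-5p with no filter or with the array row as block (adjusted p = 0.0807). hsa-miR-9-5p, known from neural cells, fell by 0.88 ± 0.22 (SE, adjusted p = 0.00523), and was not called without scaling, with the labelling spike-ins, in the authors' processed values or with no filter on detection.

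The control features show how far the scale enters. The labelling spike-ins, RNAs added to each sample before labelling, had, before scaling, a mean log2 intensity of 11.44 ± 0.16 (SD, n = 4) in the DMSO group, where the UNC1999 group had 11.33 ± 0.10 (SD, n = 4). After scaling both were lower on the UNC1999 arrays, dmr_285 by -0.82 and dmr_31a by -0.81, and the hybridization spike-ins dmr_3 and dmr_6 by -0.71 and -0.76. The control features hur_1, hur_2, hur_4, hur_5 and hur_6 differed by between -0.83 and -1.03, and mr_1 by -0.52. The features dmr_308 and dmr_316 lay at or near the floor. Relative to the labelling spike-ins, the log2 difference was 1.83 for hsa-miR-1246 and 1.57 for hsa-miR-1290. Equal amounts of total RNA were labelled, so a change in the total of all miRNAs in a cell cannot be told apart from a change in their share of the RNA.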

How the data were processed

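Per the file headers the scanner files came from Agilent Feature Extraction 10.7.3.1, and for each of 53144 spots the authors deposited an intensity with the background subtracted and no normalization between arrays. They also deposited log2 values of the same arrays, whose floor lies at -3.32 and which hold 2031 human miRNAs; these served as an alternative, and their scaling is not given in the sources used here. The spots of a probe were averaged without outlier spots, probes were summed per miRNA, arrays were scaled to the 75th percentile of the 346 miRNAs found on all of them, and values were floored at 8.98 before log2. The test used limma 3.58.1 (lmFit, eBayes) under R 4.3.3 on the 456 miRNAs that every array of one group or both detected. Only the fit and the calling rule were tested on simulated data, not the averaging, summing, scaling, floor or filter. The simulated noise was drawn separately for each array, so the alike pairs of arrays were not simulated. The floor understates changes of dim miRNAs, and the number of arrays limits the precision. The members and lists were chosen with earlier results of these data known. Named miRNAs are the pair, the linked and marker lists, those alike in sequence, and per member the 5 most and 3 least alike in pattern. Alternatives were the software's sum per miRNA, normexp (offset 50, on the median signal), other scalings, floors, filters, probe rules and variance models, blocks, thresholds, the methods' t-test (the paired test of the statistics section) and leaving out each array. All arrays lay on 1 slide, so slide was no block.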

Additional observations from a re-analysis of the deposited data

Results flagged for a closer look

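Of 103 groups of 4 arrays examined, 2 held an array far from the other 3, where chance gives about 1 in 20. hsa-miR-138-5p was at 6.73 on UNC1999 replicate 2 and between 6.62 and 6.63 on the other UNC1999 arrays (log2 scaled intensity). The control feature dmr_316 was at 3.88 on DMSO replicate 3 and between 3.17, the floor, and 3.23 on the other DMSO arrays. Before scaling and flooring its intensity was 5.15, 6.31, 8.41 and 7.91 on DMSO replicates 1 to 4, so replicate 3 lay close to replicate 4.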

How the results depend on the processing

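hsa-miR-1246 and hsa-miR-1290 were higher after UNC1999 under every alternative run other than the dimmer probe of hsa-miR-1290 alone, which gives no direction because it was not well above background on DMSO replicates 2 and 3. The log2 difference of hsa-miR-1246 was 1.71 without scaling and 1.83 with the labelling spike-ins, and between 0.78 and 1.25 with an array left out. That of hsa-miR-1290 was 1.45 without scaling, 1.57 with the labelling spike-ins and, with no direction to be read, 0.37 with that dimmer probe, and between 0.61 and 0.86 with an array left out. The difference of the within-array ratio was between 0.024, without UNC1999 replicate 2, and 0.48 with an array left out, and between 0.23, with the scanner software's sum, and 0.56, with normexp, under the other alternatives. The correlation of deviations was -0.233 with the scanner software's sum, -0.313 with the mean of log2 probe values, -0.507 in the authors' processed values, -0.569 with the percentile over all human miRNAs and -0.493 with quantile normalization. It was 0.309 without scaling, 0.141 with the labelling spike-ins, 0.197 with the replicate block and 0.881 with alike arrays as a block, and between -0.302 and -0.0354 with an array left out. The number of called miRNAs was 195 with no filter on detection, 175 at a fold change of at least 1.5, 236 by the methods' t-test, the paired test of the statistics section and not the moderated one of the array methods, at its unadjusted threshold and 152 by that test after Benjamini-Hochberg, and between 296 and 326 with an array left out. The replicate block gave 308 called miRNAs against 322, the array row as block 285 and alike arrays as a block 345. With the row as block hsa-miR-1246 differed by 1.12 and hsa-miR-1290 by 0.81. Samples with the same number had correlations of their deviations of 0.179, 0.273, -0.415 and -0.392, so the numbers were not taken to pair them. Only DMSO replicate 2 and UNC1999 replicate 2 correlated best with their own number.

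Of 367 values of 16 listed miRNAs under alternatives, 320 kept their direction and side of the threshold. Without scaling hsa-miR-664b-3p was at 0.067, hsa-miR-142-3p at 0.18, hsa-miR-142-5p at 0.33, hsa-miR-150-5p at 0.13 and hsa-miR-21-5p at 0.69. With the labelling spike-ins these were at 0.18, 0.30, 0.45, 0.25 and 0.80. With normexp hsa-miR-664b-5p was at -0.35, hsa-miR-4669 at -0.11 and hsa-miR-21-5p at 0.18. hsa-miR-21-5p, at -0.010 with the main settings, was at 0.21 with the percentile over all human miRNAs, 0.11 with quantile normalization, 0.26 in the authors' processed values, 0.072 with a block for the slide's array rows, and between -0.15 and 0.060 with an array left out. The likeness values were recomputed under alternatives chosen after seeing the data, and 12 of 256 changed sign. A further 109 kept their sign but moved by at least the SD of r over the fits with an array left out, and 135 moved by less. With normexp r with hsa-miR-1290 was -0.570 for hsa-miR-4689, -0.591 for hsa-miR-1181, -0.193 for hsa-miR-7108-5p and -0.297 for hsa-miR-718. Without scaling it was 0.0978 for hsa-miR-210-3p, 0.776 for hsa-miR-5739 and 0.865 for hsa-miR-138-5p, and for the last 2 it was 0.0780 and 0.184 with the percentile over all human miRNAs and 0.610 and 0.790 with the labelling spike-ins. hsa-miR-4442 had r = 0.00444 with hsa-miR-1246 without scaling. The cause of these changes was not tested.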
